A study of Drosophila melanogaster with 4 samples.

Results

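The vacuolar proton ATPase (V-ATPase) genes were found in the gene table as every row whose name starts with Vha followed by a digit or a capital letter. The rule took 33 of 16680 genes, and 20 of the 33 averaged 1 FPKM or more (reads per kilobase of transcript, scaled to the mapped reads of the library) and entered the test, as did 10194 genes in all. The rule itself uses names and no measured values. The data are mRNA-seq of adult male Drosophila heads in 4 libraries, each from 10 pooled heads. The design text of the series also has the word ovaries, whereas the sample labels give heads of males, and photoreceptor genes were abundant in every library. All flies carried Kr[If-1], a dominant allele of the segmentation gene Krüppel whose misexpression disturbs eye development and whose lesion is undefined, and all were F1 progeny of parents exposed to 10 µM Cr(VI). The 2 +phenotype libraries came from flies with phenotypic variations of the eye and the 2 no-phenotype libraries from flies without them, and the labels call the repeats biological. Progeny of unexposed parents were not analysed here, so the comparison is between affected and unaffected flies after the same parental exposure.

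The V-ATPase is a rotary pump that spends ATP to move protons into lysosomes, endosomes, synaptic vesicles and, in some epithelia, out of the cell. Its cytosolic V1 sector holds a ring of alternating A and B subunits that hydrolyzes ATP and turns a central shaft of D and F, while stalks of E and G with C and H hold the ring still. The shaft turns the membrane sector V0, a ring of c and c'' proteolipids with d on top, against the a subunit that carries the proton half-channels, and the acidity it makes drives transmitter loading into synaptic vesicles. Fly genomes carry several genes for some subunits, and many of these copies are used in few tissues. The 33 genes cover 15 kinds of subunit, with 13 genes for V1, 18 for V0 and 2 for the accessory proteins Ac45 and ATP6AP2.

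V-ATPase transcripts were abundant and differed little between the libraries. Of the 20 genes tested, 17 averaged 100 FPKM or more, and every kind of subunit had at least 1 gene at that level. Summed over all 33 genes, the level was 3680 and 3845 FPKM in the +phenotype libraries, against 3807 and 3924 FPKM in the no-phenotype libraries. The groups thus overlapped as deposited, with a log2 ratio of the group means of -0.039. With the libraries rescaled by the median ratio of all genes the ratio was -0.12, and the groups did not overlap. As deposited, the sum was 0.633% and 0.647% of all summed FPKM in the +phenotype libraries, against 0.626% and 0.671% in the no-phenotype libraries. The V1 genes summed to 2118 ± 66.2 FPKM in +phenotype and 2205 ± 61.1 FPKM in no-phenotype heads (SD, n = 2 each), and the V0 genes to 1260 ± 39.3 FPKM in +phenotype and 1281 ± 22.5 FPKM in no-phenotype heads (SD, n = 2 each). Within a library the V1 sum was 1.68 times the V0 sum in both +phenotype libraries, against 1.71 and 1.73 times in the no-phenotype libraries. Heads are mixed tissue, and in such bulk samples fewer cells of a type and less RNA per cell cannot be told apart.

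**Figure D1:**
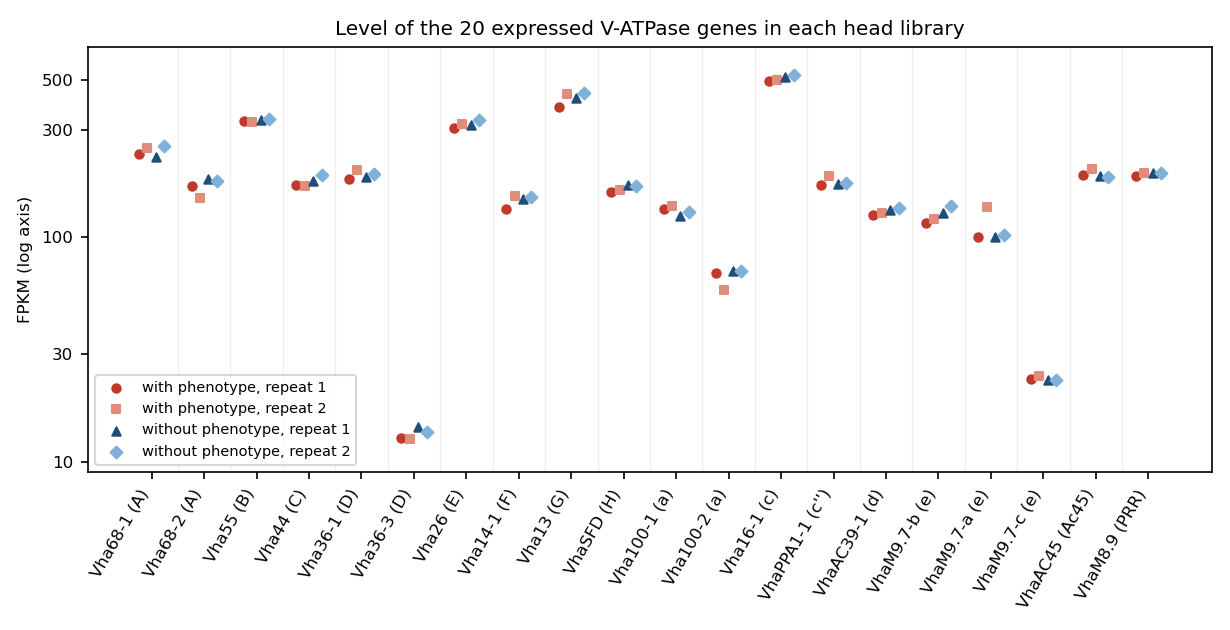
FPKM (log axis) of the 20 V-ATPase genes that were tested, ordered by subunit (letter in brackets), with 1 point for each of the 4 libraries. Of these genes 17 averaged 100 FPKM or more, Vha16-1 was the highest and Vha36-3 the lowest, and the 4 points of most genes lie close together.

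No V-ATPase gene passed the test. With limma on log2(FPKM + 1) and Benjamini-Hochberg adjustment over all genes tested, 0 of 20 had an adjusted p under 0.1, where 9 of 10194 genes did (0.0883%). At an unadjusted p under 0.05 the count was also 0 of 20, while 22.7% of all genes tested were there. The differences, +phenotype minus no-phenotype on the log2(FPKM + 1) scale, lay between -0.18 for Vha68-2 and 0.20 for VhaM9.7-a, with a median of -0.059 against 0.070 over all genes tested. At high levels this gap was smaller: the 17 V-ATPase genes that averaged 100 FPKM or more had a median of -0.054, against -0.027 for all 1035 genes at that level. Only 1 of the 20 (5.0%) differed by more than 0.2 in size, against 40.7% of all genes tested and 42.9% of those 1035 genes. That gene, VhaM9.7-a, was at 0.12 with the libraries rescaled by the median ratio of all genes. On that scale Vha68-2 (-0.27), VhaM9.7-b (-0.25) and Vha100-2 (-0.23) exceeded 0.2 in size, and the share of all genes was not computed. Over the 4 libraries the median SD was 0.059 (log2) for the V-ATPase genes, 0.135 for all genes tested and 0.147 for the same 1035 genes. The highest library exceeded the lowest by a median factor of 1.10 among the V-ATPase genes and of 1.26 among all genes tested.

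The small differences leaned to the lower side. In 10 of 20 genes (50%) both +phenotype libraries were below both no-phenotype libraries, where 18.3% of all genes tested were. In 3 of 20 (15.0%) both were above, where 41.3% of all genes tested were. The 10 were Vha16-1, Vha36-3, Vha44, Vha55, Vha68-2, Vha100-2, VhaAC39-1, VhaM8.9, VhaM9.7-b and VhaSFD, and the 3 were Vha100-1, VhaAC45 and VhaM9.7-c, the last pair of which had negative differences once the libraries were rescaled. By the sign of the mean difference 13 were lower and 7 higher. This split depends on the scale: with the libraries rescaled by the median ratio of all genes, the median of all genes tested moved to -0.0066 and that of the V-ATPase genes to -0.14, and 18 of 20 were lower. On that scale 15 of 20 (75%) were below without overlap, against 29.2% of all genes tested, and 1 of 20 (5.0%) was above, against 29.2%. Relative to the median of all genes, the V-ATPase median was -0.13 on the deposited scale, -0.14 after rescaling and -0.054 without the filter on low genes. Genes that averaged 100 FPKM or more had a median of -0.027 as deposited. Among them 56.7% did not overlap, both directions together, against 58.8% of the 17 V-ATPase genes at that level. As deposited, +phenotype repeat 1 was the lowest library for 11 of the 20 genes and the highest for 0. An exact permutation test of 2 against 2 libraries cannot give a two-sided p under 0.333.

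**Figure D2:**
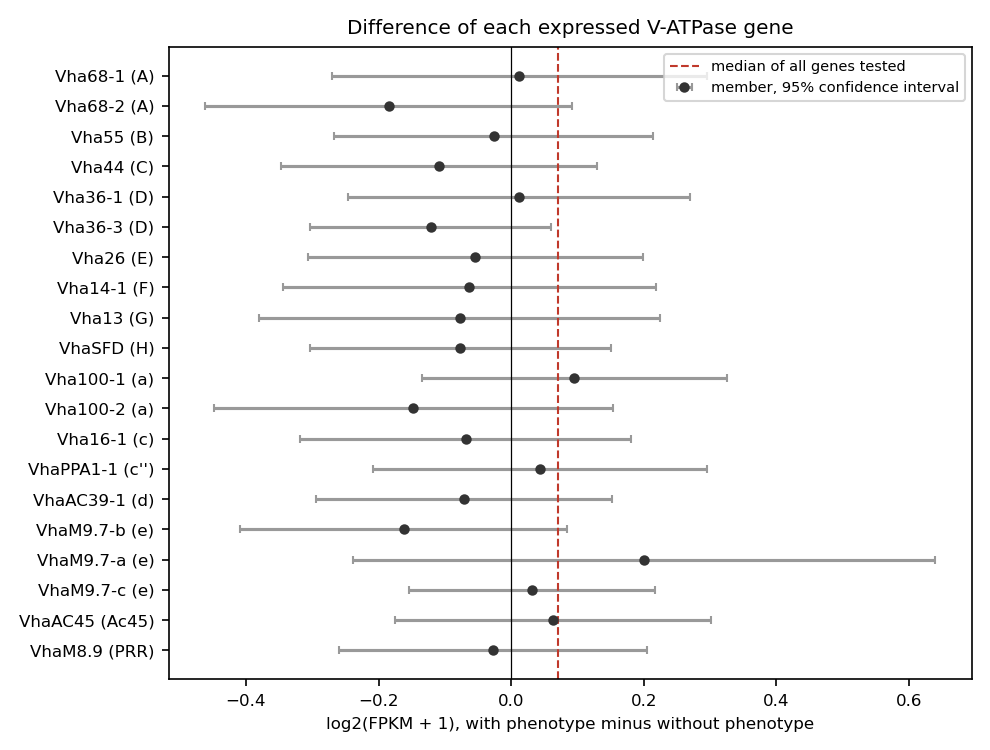
Difference of each V-ATPase gene, +phenotype minus no-phenotype, on the log2(FPKM + 1) scale with its 95% confidence interval from limma; genes run down the page by subunit. Every interval includes 0, and most points lie left of the dashed line, the median of all genes tested (0.070).

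The catalytic A subunit, which binds and hydrolyzes ATP, came from a pair of genes. Vha68-1 was at 233.8 and 249.5 FPKM in +phenotype heads, against 226.8 and 252.9 FPKM in no-phenotype heads, so its groups overlapped (log2 difference 0.012, 95% confidence interval -0.27 to 0.29). Vha68-2 was at 168.3 and 148.4 FPKM in +phenotype heads, against 181.6 and 177.9 FPKM in no-phenotype heads. Both +phenotype libraries were lower, repeat 2 more so, and this was the most negative difference of the family (log2 difference -0.18 ± 0.10 SE, interval -0.46 to 0.092, limma adjusted p = 0.34). The A genes lie near each other on chromosome arm 2L of dm6, Vha68-2 at 12974322 to 12978607, Vha68-3 at 12978786 to 12981293 and Vha68-1 at 13000770 to 13004107 on the other strand. Vha68-3 did not exceed 0.07 FPKM in any library.

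Vha55, the only gene for the B subunit that alternates with A in the ring, was at 329.0 and 325.0 FPKM in +phenotype heads, against 331.4 and 334.8 FPKM in no-phenotype heads. The groups did not overlap, yet the highest and the lowest library were only 1.03-fold apart, and the interval of the fold difference ran between 0.831 and 1.16 (limma adjusted p = 0.87). Vha26, the E subunit of the peripheral stalks, was at 304.1 and 316.7 FPKM in +phenotype heads, against 313.8 and 330.8 FPKM in no-phenotype heads. Vha13, the G subunit that pairs with E, was at 378.5 and 430.9 FPKM in +phenotype heads, against 413.8 and 439.1 FPKM in no-phenotype heads. Both stalk genes overlapped between groups as deposited, and Vha13 varied more than Vha26 between the +phenotype repeats. After rescaling by the median ratio of all genes both were below without overlap, with log2 differences of -0.14 (Vha26) and -0.16 (Vha13).

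The C and H subunits govern whether V1 stays attached to V0 and works, and in both the +phenotype libraries were lower without overlap. Vha44 (C) was at 170.3 and 168.5 FPKM in +phenotype heads, against 177.7 and 188.0 FPKM in no-phenotype heads (log2 difference -0.11, interval -0.35 to 0.13). VhaSFD (H) was at 159.1 and 161.8 FPKM in +phenotype heads, against 169.5 and 169.0 FPKM in no-phenotype heads (log2 difference -0.077). Neither passed the test (limma adjusted p = 0.49 and 0.60). Vha44 shares 148 of its exonic bases (3.68%) with Hmgs, and the kit does not mark strand, so reads there cannot be told apart.

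The shaft subunits D and F came almost wholly from 1 gene each. Vha36-1 (D) was at 181.3 and 198.0 FPKM in +phenotype heads, against 184.8 and 191.0 FPKM in no-phenotype heads. Vha14-1 (F) was at 133.1 and 152.4 FPKM in +phenotype heads, against 147.3 and 150.4 FPKM in no-phenotype heads. In both genes the +phenotype repeats enclosed the no-phenotype values as deposited. After rescaling both were below without overlap, with log2 differences of -0.071 (Vha36-1) and -0.15 (Vha14-1). A second D gene, Vha36-3, was at 12.8 and 12.7 FPKM in +phenotype heads, against 14.3 and 13.6 FPKM in no-phenotype heads. It made up 6.57% and 6.01% of the D transcripts in the +phenotype libraries, against 7.16% and 6.64% in the no-phenotype libraries, and its log2 difference was -0.12 ± 0.069 SE (limma adjusted p = 0.34).

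In V0 the c proteolipid, which carries protons around the rotor ring, had the highest level of the family. Vha16-1 was at 495.9 and 497.1 FPKM in +phenotype heads, against 514.3 and 527.5 FPKM in no-phenotype heads. Its mean was at percentile 97.9 of the means of all genes tested, and the groups did not overlap (log2 difference -0.069, interval -0.32 to 0.18, limma adjusted p = 0.67). VhaPPA1-1, the c'' proteolipid of the same ring, was at 170.9 and 186.1 FPKM in +phenotype heads, against 172.2 and 173.9 FPKM in no-phenotype heads. VhaAC39-1, the d subunit between ring and shaft, was at 125.7 and 127.3 FPKM in +phenotype heads, against 131.5 and 134.4 FPKM in no-phenotype heads. The d gene was lower without overlap and the c'' gene overlapped, and neither passed the test.

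The a subunit, through which protons enter and leave the membrane, came mainly from a pair of genes whose differences had opposite signs. The A, D and e genes also differed in sign as deposited. For A and D this rested on Vha68-1 and Vha36-1, at 0.012 each, which were at -0.071 each after rescaling. Vha100-1 (3R, 29131193 to 29137980 of dm6), the neuronal a subunit known for its part at synaptic vesicles, was at 132.6 and 137.5 FPKM in +phenotype heads, against 124.0 and 128.7 FPKM in no-phenotype heads. Vha100-2 (3R, 18390323 to 18399169) was at 69.2 and 58.0 FPKM in +phenotype heads, against 70.4 and 70.2 FPKM in no-phenotype heads. Neither pair of groups overlapped: Vha100-1 was higher (log2 difference 0.095, interval -0.14 to 0.33, and 0.012 after rescaling) and Vha100-2 lower (-0.15, interval -0.45 to 0.15) in +phenotype heads, within these intervals. Their sum with the other a genes was nearly constant, at 202.0 and 197.4 FPKM in +phenotype heads, against 196.6 and 199.1 FPKM in no-phenotype heads.

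The small membrane subunit e had the widest spread of the subunit sums, with 1.18-fold between the highest and the lowest library. VhaM9.7-a was at 99.7 and 135.2 FPKM in +phenotype heads, against 99.9 and 102.0 FPKM in no-phenotype heads. Only +phenotype repeat 2 stood above the rest, so the difference of 0.20 ± 0.17 SE (log2, interval -0.24 to 0.64, limma adjusted p = 0.49), the most positive of the family, became -0.018 without that library. VhaM9.7-b was at 114.8 and 120.6 FPKM in +phenotype heads, against 127.1 and 136.7 FPKM in no-phenotype heads (log2 difference -0.16, interval -0.41 to 0.084). VhaM9.7-c was at 23.2 and 24.1 FPKM in +phenotype heads, against 23.1 FPKM in both no-phenotype libraries. The groups of VhaM9.7-b and VhaM9.7-c did not overlap, in opposite directions as deposited but both negative after rescaling, and for VhaM9.7-c the highest library was only 1.04 times the lowest.

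Of the accessory proteins, VhaAC45, which helps assemble and route the pump, was at 189.4 and 199.8 FPKM in +phenotype heads, against 187.2 and 185.2 FPKM in no-phenotype heads. VhaM8.9, the fly ATP6AP2 (the prorenin receptor of mammals), was at 186.7 and 192.3 FPKM in +phenotype heads, against 192.9 and 193.4 FPKM in no-phenotype heads. Without overlap, the first was higher (lower after rescaling, at -0.020) and the second lower, by log2 differences of 0.063 and -0.028 that did not pass the test (limma adjusted p = 0.68 and 0.86). A relative of Ac45 used in neurons, CG31030 (VhaAC45RP), is listed under its number and falls outside the naming rule. It was at 120.7 and 134.1 FPKM in +phenotype heads, against 109.2 and 119.2 FPKM in no-phenotype heads (log2 difference 0.16, interval -0.12 to 0.43).

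In every library, subunits with several copies in a complex had higher summed levels than those with 1 copy. Subunits A, B, E and G of V1 and c of V0 are present in several copies in a complex, and C, D, F, H, a, c'', d and e in 1, as is known from structures of the pump. This grouping was made after the values had been seen and is given as a description. Summed over its genes, each of the 5 multi-copy subunits had between 304.1 (E) and 496.0 (c) FPKM in +phenotype repeat 1, against 126.0 (d) to 237.7 (e) FPKM for the 8 single-copy subunits. In +phenotype repeat 2 the ranges were 316.7 to 497.2 FPKM for multi-copy and 127.5 to 279.9 FPKM for single-copy subunits. The no-phenotype libraries gave 313.8 to 514.5 against 131.7 to 250.1 FPKM in repeat 1 and 330.8 to 527.5 against 134.6 to 261.8 FPKM in repeat 2. The multi-copy and single-copy subunits did not overlap in any library, with E always the lowest of the former and e always the highest of the latter. The step between them was not always the widest. In +phenotype repeat 2 it ran from 279.9 to 316.7 FPKM, while the multi-copy subunits B (325.0 FPKM) and A (398.0 FPKM) lay further apart. The levels were not proportional to copy number: the c ring has more copies than A or B, while c was 2.46 and 2.52 times the single-copy a subunit in +phenotype libraries, against 2.62 and 2.65 times in no-phenotype libraries, and A was 1.22 and 1.23 times B, against 1.23 and 1.29 times.

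**Figure D3:**
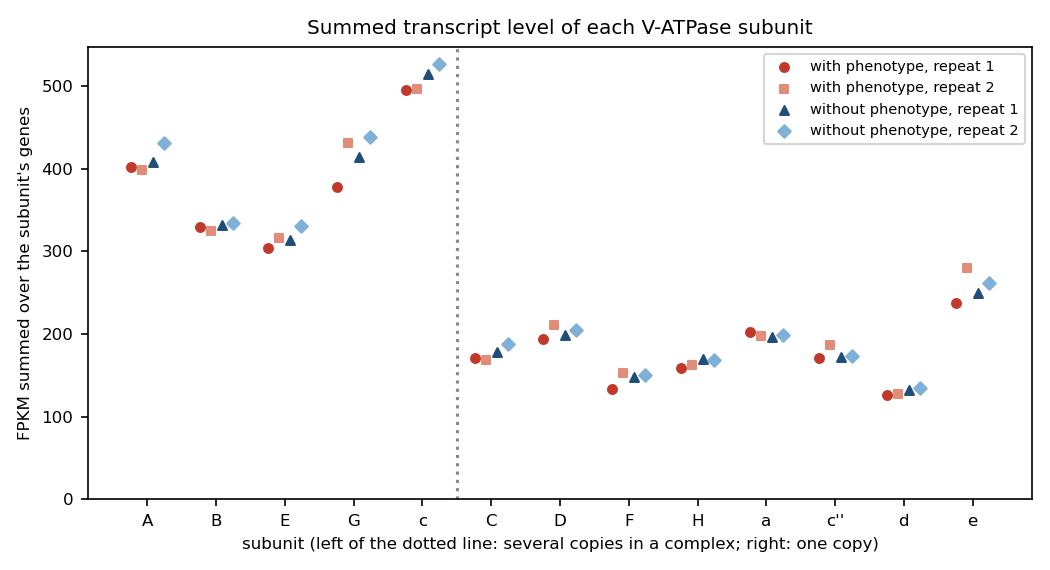
FPKM summed over the genes of each subunit, 1 point for each library, with subunits present in several copies left of the dotted line and single-copy subunits right of it. The left set lies above 304 FPKM in all 4 libraries and the right set below 280 FPKM.

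By single genes, the order of means ran Vha16-1 (508.7 FPKM), Vha13 (415.6), Vha55 (330.1), Vha26 (316.3) and Vha68-1 (240.7). Vha55 and Vha26 overlapped over the 4 libraries, and the others of these did not overlap with their neighbours. From VhaM8.9 (191.3 FPKM) down through VhaAC45, Vha36-1, Vha44, VhaPPA1-1, Vha68-2 and VhaSFD (164.9 FPKM) each gene overlapped with the next. The same was true from Vha14-1 (145.8 FPKM) through Vha100-1, VhaAC39-1, VhaM9.7-b and VhaM9.7-a (109.2 FPKM). Below these, Vha100-2 (67.0 FPKM), VhaM9.7-c (23.4 FPKM) and Vha36-3 (13.3 FPKM) stood apart from each other.

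Paralog shares, which do not depend on how libraries are scaled against each other, set +phenotype repeat 2 apart. Vha68-2 gave 41.9% and 37.3% of the A transcripts in +phenotype libraries, against 44.5% and 41.3% in no-phenotype libraries. Vha100-2 gave 34.3% and 29.4% of the a transcripts in +phenotype libraries, against 35.8% and 35.3% in no-phenotype libraries. VhaM9.7-a gave 41.9% and 48.3% of the e transcripts in +phenotype libraries, against 39.9% and 39.0% in no-phenotype libraries. In all 3 subunits the most extreme share was that of +phenotype repeat 2. The shares of Vha100-2 and VhaM9.7-a did not overlap between groups, with or without that library, and the share of Vha68-2 did. The reads are 50 bases long, and the counting program divides reads that fit several genes by estimate, so stretches shared between paralogs add uncertainty to these shares that the replicates do not show.

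**Figure D4:**
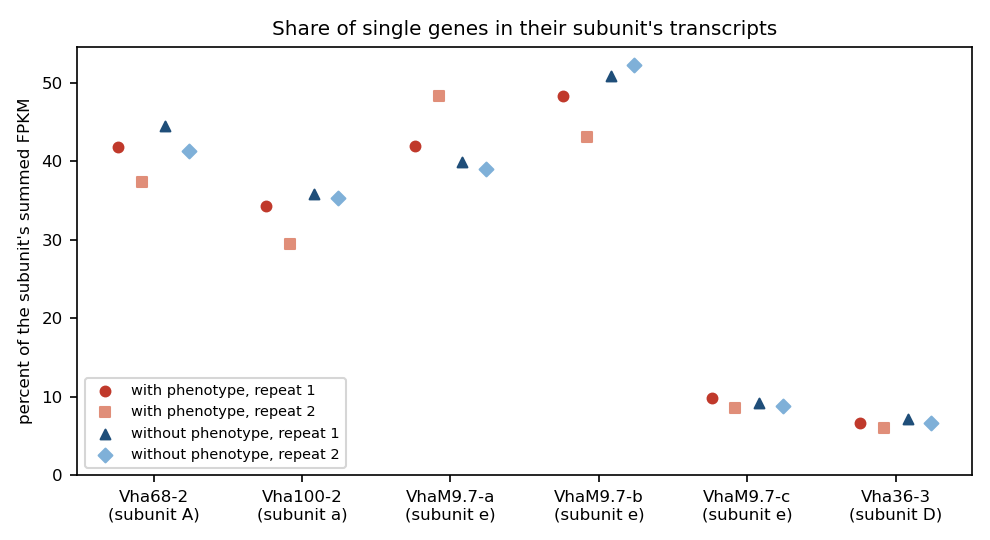
Share of single genes in the summed FPKM of their subunit (percent), with 1 point for each library. For Vha68-2, Vha100-2, VhaM9.7-a and VhaM9.7-b the point of +phenotype repeat 2 is the most extreme of the 4.

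The other 13 genes had a mean under 1 FPKM and were not tested. Vha16-2, Vha16-3 and VhaM9.7-d were at 0 in all 4 libraries. Vha68-3, Vha36-2, Vha100-3, Vha16-4, Vha16-5, VhaPPA1-2 and VhaAC39-2 were seen in at least 1 library but never above 0.25 FPKM. Vha14-2, the second F gene, was at 0.52 and 0.38 FPKM in +phenotype heads, against 0.27 FPKM in both no-phenotype libraries. VhaPPA1-2 is next to the abundant VhaPPA1-1 on 3R (14899606 to 14900277 and 14902330 to 14904061), while Vha16-2 and Vha16-3, both at 0, are next to each other on 3L.

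Vha100-4 and Vha100-5, a subunit genes like Vha100-1, were each seen mainly in 1 library. Vha100-4, known for acid secretion in the fly midgut, was at 0.08 and 1.78 FPKM in +phenotype heads, against 0 and 0.03 FPKM in no-phenotype heads. Vha100-5 was at 0.07 and 0.15 FPKM in +phenotype heads, against 2.16 and 0.04 FPKM in no-phenotype heads. For a transcript of 1000 bases about 1 read is worth 0.018 to 0.0205 FPKM, so these highest values stand for roughly 240 and 320 reads, and the groups cannot be compared through 1 library each. Vha100-4 (3R, 18386841 to 18389805) is next to Vha100-2, which was lowest in the library where Vha100-4 was seen. Vha100-5 (2L, 11738948 to 11744524) shares 18.1% of its exonic bases with CR44144. The summed level of 45 digestive enzyme genes was 233.1 and 509.2 FPKM in +phenotype heads, against 964.2 and 385.4 FPKM in no-phenotype heads, highest in the 2 libraries that held Vha100-5 and Vha100-4. Of the 45, 8 stayed under 1 FPKM in all libraries and 1 was at 0 throughout. Among the 44 others, 12 were highest in +phenotype repeat 2 and 25 in no-phenotype repeat 1. The part of gut tissue in the levels of these a genes was not tested.

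**Figure D5:**
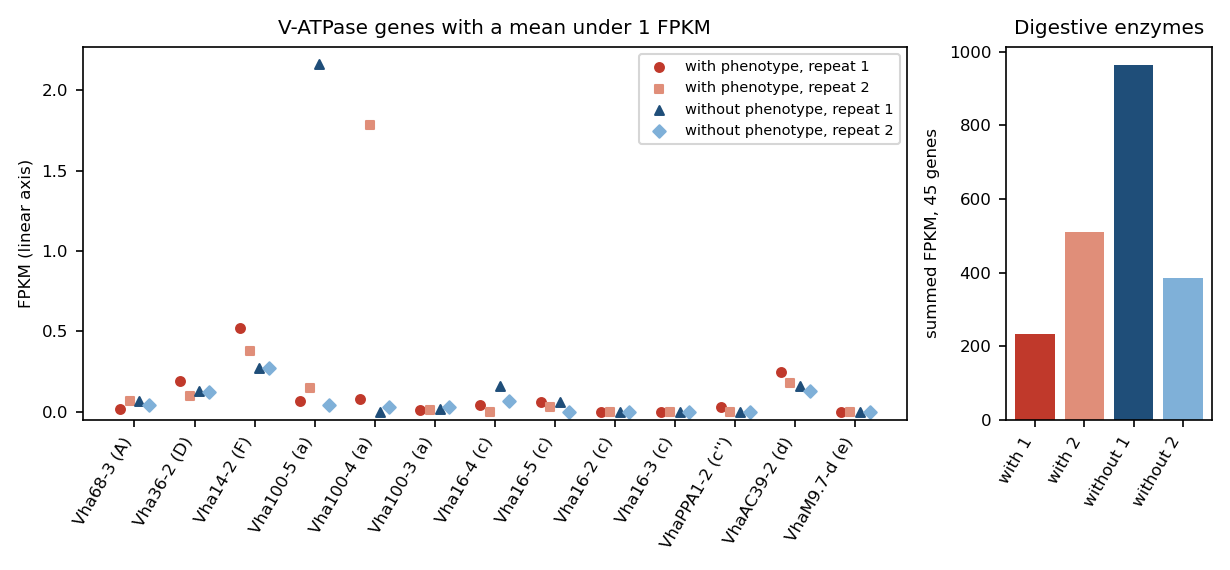
Left, FPKM (linear axis) of the 13 V-ATPase genes with a mean under 1 FPKM, 1 point for each library. Right, summed FPKM of 45 digestive enzyme genes in each library; Vha100-5 reached 2.16 FPKM in no-phenotype repeat 1 and Vha100-4 1.78 FPKM in +phenotype repeat 2, the libraries with the highest bars (964.2 and 509.2 FPKM).

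A list that joined genes for assembly and regulation of the pump with genes of the nutrient sensing complex on lysosomes had small differences as well. Of its 10 genes tested, 0 passed limma's adjusted p (0.0883% of all genes tested) and 0 had an unadjusted p under 0.05 (22.7%). Their median difference was 0.035 (log2), or -0.045 after rescaling. Without overlap 3 were above (41.3% of all genes tested) and 0 below (18.3%). After rescaling 2 were above and 3 below, where 29.2% of all genes lay on either side. Rbcn-3A, part of the complex that loads V1 onto V0, was the highest, at 43.1 and 40.4 FPKM in +phenotype heads, against 38.8 and 41.5 FPKM in no-phenotype heads. Mitf, the factor known to activate V-ATPase genes in flies, was at 26.6 and 27.1 FPKM in +phenotype heads, against 26.4 and 27.5 FPKM in no-phenotype heads. RagC-D, a GTPase of the nutrient sensing complex on lysosomes, had the largest positive difference (0.16), at 29.99 and 29.22 FPKM in +phenotype heads, against 25.87 and 26.92 FPKM in no-phenotype heads. The most negative was CG5969, the fly counterpart of the yeast V0 assembly factor Vma21, at -0.042.

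Synaptic vesicles are loaded through the acidity that the pump makes. Of 10 synaptic vesicle genes, 0 passed limma's adjusted p, 1 had an unadjusted p under 0.05 (against 22.7% of all genes), 6 were above without overlap (against 41.3% of all genes) and 0 below (against 18.3%), and the median difference was 0.12 (log2). After rescaling the median was 0.035, with 4 above and 1 below without overlap, where 29.2% of all genes lay on either side. The highest, nSyb, the vesicle SNARE, was at 405.2 and 427.6 FPKM in +phenotype heads, against 360.4 and 380.9 FPKM in no-phenotype heads. The largest positive difference was that of Syn (synapsin), at 73.9 and 78.5 FPKM in +phenotype heads, against 61.7 and 65.7 FPKM in no-phenotype heads (log2 0.25), and the only negative one that of Csp (-0.014). Summed over 4 neuronal markers the level was 345.2 and 365.8 FPKM in +phenotype heads, against 317.8 and 335.8 FPKM in no-phenotype heads, without overlap, though after rescaling 2 of the 4 were higher and 2 lower. Most of this sum was Syt1, which is also 1 of the 10 synaptic vesicle genes. The marker elav overlapped, at 23.2 and 21.1 FPKM in +phenotype heads, against 20.6 and 21.9 FPKM in no-phenotype heads. The part of neuronal RNA in the levels of Vha100-1 was not tested.

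As deposited, lysosomal genes had differences of either sign, 10 higher and 11 lower. Of 21 tested, 0 passed limma's adjusted p. At an unadjusted p under 0.05, 3 were higher and 3 lower (22.7% of all genes tested, both directions together). Without overlap 5 were above (41.3% of all genes tested) and 6 below (18.3%). The median difference was -0.017 (log2), or -0.095 after rescaling. On the rescaled values 15 of 21 were lower. Without overlap 4 were then above and 10 below, where 29.2% of all genes lay on either side. The highest, the cathepsin L gene Cp1, was at 597.4 and 562.2 FPKM in +phenotype heads, against 594.4 and 701.8 FPKM in no-phenotype heads. The largest positive difference was that of spin, a lysosomal efflux transporter, at 87.5 and 73.6 FPKM in +phenotype heads, against 41.8 and 47.1 FPKM in no-phenotype heads (log2 0.84, interval 0.51 to 1.17, limma adjusted p = 0.12). The most negative was that of CG31148, a glucocerebrosidase gene, at 0.10 and 0.15 FPKM in +phenotype heads, against 6.98 and 0.10 FPKM in no-phenotype heads, so that it was high only in the library where Vha100-5 was highest.

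The mitochondrial F-type ATP synthase, a rotary enzyme built on the same plan, was given as a parallel. Of its 13 genes tested, 0 passed limma's adjusted p (0.0883% of all genes tested) and 0 had an unadjusted p under 0.05 (22.7%). In mean 13 were lower and 5 were below without overlap (18.3% of all genes tested), with a median difference of -0.14 (log2). After rescaling the median was -0.22 and 12 of 13 were below without overlap, against 29.2% of all genes. CG1746, the c ring proteolipid of that enzyme, was the highest, at 2190 and 2088 FPKM in +phenotype heads, against 2724 and 2203 FPKM in no-phenotype heads. The most negative difference was -0.26 for l(1)G0230, its delta subunit, at 339.0 and 342.4 FPKM in +phenotype heads, against 445.4 and 373.8 FPKM in no-phenotype heads. In both of these genes no-phenotype repeat 1 was the highest library.

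Markers of several other tissues were less level between the libraries. The 14 muscle genes summed to 5803 and 5353 FPKM in +phenotype heads, against 8339 and 7578 FPKM in no-phenotype heads, and all 14 were below without overlap, where 18.3% of all genes tested were, and also after rescaling, where 29.2% were. Sums of 8 photoreceptor genes were 2416 and 1750 FPKM in +phenotype heads, against 1885 and 1478 FPKM in no-phenotype heads, and those of 4 glial genes 1265 and 1007 against 1256 and 1183 FPKM. Sums of 10 fat body genes were 1955 and 1381 FPKM in +phenotype heads, against 2989 and 1226 FPKM in no-phenotype heads. Of these 10, Fbp2 and Lsp1alpha passed the test (limma adjusted p = 0.077 for both), where 0.0883% of all genes tested did. Their log2 differences were -2.49 and -1.85. Without overlap 5 of the 10 were below, against 18.3% of all genes tested, and 3 above, against 41.3%. The 3 above were Rfabg, CG3523 and AkhR, with log2 differences of 1.23, 0.60 and 0.30, which did not pass the test. Much of the fat body sum in no-phenotype repeat 1 was Lsp2. That gene was at 405.7 and 146.9 FPKM in +phenotype heads, against 1348 and 292.8 FPKM in no-phenotype heads. Among 8 Malpighian tubule genes 3 stayed under 1 FPKM in all libraries, and CG1678 alone was at 26.7 and 79.5 FPKM in +phenotype heads, against 53.5 and 568.2 FPKM in no-phenotype heads. The other 7 summed to 34.2 and 34.1 FPKM in +phenotype heads, against 34.3 and 35.9 FPKM in no-phenotype heads. All 16 testis genes stayed under 1 FPKM, and 3 of them were at 0 throughout. The part of these tissues in the small differences of the V-ATPase genes was not tested.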

How the data were processed

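Per the labels and the study's methods, poly(A) RNA of 10 male heads per library was sequenced as 50-base single-end reads from a kit that does not mark strand. The authors mapped them with Bowtie2 to dm6 RefSeq transcripts, estimated abundance with RSEM and deposited FPKM per gene. The submitters' processing notes also name dm3. No versions of these tools were found in the sources used here. The FPKM values have 2 decimals, so whole reads were not recovered and no count test was run; the total depth is unknown, and relative depth from the smallest values was 0.969 to 1.10. Of the gene rows, 16491 matched the Ensembl annotation of dm6 by current or older symbol, which gave positions.

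The main test was limma 3.58.1 (R 4.3.3; two-sided, moderated with a mean-variance trend) on log2(FPKM + 1) of the 10194 genes that averaged 1 FPKM or more. P-values were adjusted by Benjamini-Hochberg over these genes, with a threshold of 0.1. A fold on this scale understates the change of low genes. The fit was tested on simulated data. Sums, shares and ratios used FPKM as deposited, with Python 3.11.15 and pandas 2.3.3. Members and gene lists were chosen with earlier results of these data known. VhaAC39-2, Vha100-3 and Vha16-4 did not overlap between groups either, but averaged under 1 FPKM and were given by range. By rule, each subunit's most abundant gene and each tested gene with no overlap between groups were given by library. So were second genes of at least 1 FPKM, and of the related lists the highest gene and the largest difference in each direction. The genes chosen outside this rule, Mitf, CG31030, CG1678, Fbp2 and Lsp1alpha, were named after their values had been seen. CtsF of the lysosome list was not matched. Alternatives were another pseudocount, filter, threshold and scaling, limma without trend, a replicate block and leaving out each library. Promoters and protein sequences were not analysed here.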

Additional observations from a re-analysis of the deposited data

How the results depend on the processing

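The count of V-ATPase genes past the threshold was 0 under every alternative run. At an unadjusted p under 0.05 it was 1 of 30 without the filter (Vha14-2; 17.3% of all genes), 2 of 20 with libraries rescaled by median ratios (Vha36-3 and VhaM9.7-b; 20.4%) and 1 of 20 without +phenotype repeat 1 (VhaM9.7-a; 14.9%). The median difference of the V-ATPase genes was -0.059, moved to -0.14 with rescaling, and ran between -0.077 and -0.016 when 1 library was left out. The V1 and V0 sums had log2 ratios of -0.14 and -0.11 after rescaling.

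Rescaling turned 5 genes negative: Vha36-1 (-0.071), Vha68-1 (-0.071), VhaAC45 (-0.020), VhaM9.7-c (-0.049) and VhaPPA1-1 (-0.040). Leaving out 1 library turned the sign of Vha13 (-0.17 to 0.016), Vha14-1 (-0.16 to 0.033), Vha36-1 (-0.052 to 0.075), Vha68-1 (-0.066 to 0.090), VhaM9.7-a (-0.018 to 0.42) and VhaPPA1-1 (-0.018 to 0.10), whose directions thus depend on single libraries.

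The count over all genes depended on the setting. It was 9, and 4 at an adjusted p under 0.05, 23 with a pseudocount of 0.1 FPKM, 3 without the filter, 109 at a mean of at least 5 FPKM, 4 with rescaling and 5 without trend. Without 1 library it ran between 0 (either +phenotype repeat left out) and 607 (no-phenotype repeat 1 left out), with the lone library assumed to vary like the others; the causes were not tested. With the repeat number as a replicate block it was 0. Deviations of same-numbered libraries correlated at -0.13, and the crossed replicate block, added after seeing the data, gave 404. A correlation this weak and a block chosen afterwards cannot decide whether same-numbered libraries belong together. No V-ATPase gene passed under either block.

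With 2 libraries per group the intervals of the V-ATPase genes were wide against their differences. Their width is not the spread of each gene alone, as limma draws each variance toward that of genes at a similar level. For Vha55 the SD within groups was 0.011 (log2), against a limma SE of 0.091. The interval of Vha55 allows a fold difference between 0.831 and 1.16, so smaller changes were not detectable by this test.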
